A study of Mus musculus with 6 samples.

Results

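Oxidative phosphorylation is the route by which mitochondria make ATP, and the genes described here encode the nuclear-encoded part of its machinery. They were taken as every gene symbol of the deposited table that begins with Nduf, Uqcr or Atp5, or with Cox and a digit from 4 to 8, with symbols marked as pseudogenes or related sequences (-ps, -rs) left out. The rule found 97 genes among 50763 symbols. By what each gene encodes, 50 belong to complex I, 8 to complex III, 21 to complex IV and 18 to complex V. The label fits the genes by name, with exceptions that the rule lets in: 8 complex I members are assembly factors and not subunits, and 5 of complex I and 1 of complex IV are duplicate copies of a subunit gene. Cox7a2l, counted with complex IV, is a factor of supercomplexes (complexes joined together), and Atp5if1, counted with complex V, is an inhibitor. Ndufa4, named for complex I, was counted with complex IV, of which it is now held to be a subunit, and Ndufa4l2 with it. Complex II, cytochrome c and the mitochondrial genes themselves fall outside the rule and are given separately.

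The RNA came from CD34- KSL cells, which are lineage-negative marrow cells bearing c-Kit and Sca-1 and are enriched for haematopoietic stem cells. All mice carried Tal1-tTA, a doxycycline-repressed activator placed under Tal1 control, and TRE-EGFR-tr, its target transgene. EGFR-DN mice (3 libraries) drank plain water and made a truncated epidermal growth factor receptor, without its cytoplasmic kinase domain, next to the normal receptor. EGFR-WT mice (3 libraries) received doxycycline at 0.2 g/L, so that the normal receptor alone was made, and doxycycline and the truncated receptor cannot be told apart as sources of a difference. Age, sex, strain and pooling of mice are not stated in the labels used here. Whether replicates were different animals is not stated either, and the p-values then reflect no more than variation among the libraries, which may be technical.

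Complex I takes electrons from NADH, complex III passes them from ubiquinol to cytochrome c, complex IV hands them to oxygen, and complex V uses the proton gradient so formed to make ATP. Most subunits are encoded in the nucleus and imported, while a small set is encoded by the mitochondrial genome, so both genomes have to supply matching parts. Quiescent haematopoietic stem cells are known for low respiration and reliance on glycolysis, and respiration rises when they divide and differentiate.

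Total estimated counts per library ranged from 24073133 to 36032428. Egfr, the gene of the receptor, was higher in EGFR-DN, with a log2 fold change of 9.01 (edgeR quasi-likelihood test, adjusted p = 0.00981). EGFR-DN replicate 3 stood apart from the other libraries. In it, 25.4% of all counts fell on 8 rRNA-like genes, where the others had 4.71% to 6.15%. Ribosomal protein mRNAs made up 0.970% of its counts and 2.64% to 2.86% of theirs. For this reason the sums and the tests of members are given with and without that library. The 6 stem cell markers examined (Kit, Ly6a, Procr, Slamf1, Mecom and Hlf) were detected in every library (CPM divides a gene's counts by those of the whole library, times 1000000, and is scaled by the trimmed mean of M-values, TMM, unless summed). Kit, the gene of c-Kit, was at 736 to 1962 CPM and Ly6a, the gene of Sca-1, at 46.7 to 78.4 CPM. By edgeR 0 of 6 passed an adjusted p of 0.05 in either fit. At an unadjusted p under 0.05 by that test, 1 was lower with all 6 libraries (Procr), where 2.4% of all genes were. Without EGFR-DN replicate 3 there were 3 lower, where 6.99% of all genes were. These 3 were Procr (log2 fold change, EGFR-DN minus EGFR-WT, -1.02), Mecom (-0.83) and Hlf (-0.60), and all 6 markers then had a value below 0. With all 6 libraries the values were -1.25 for Procr, -0.48 for Mecom and 0.14 for Hlf. Cd34 transcript was also present, although the cells were sorted as negative for the CD34 protein, at 569, 534 and 378 CPM in EGFR-DN and 318, 410 and 404 CPM in EGFR-WT. Its log2 fold change was 0.39 with all 6 libraries and 0.54 without EGFR-DN replicate 3, without a call (edgeR adjusted p = 0.690 and 0.118). The part of these markers in the results on members was not tested.

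The nuclear-encoded respiratory transcripts were abundant and near equal in 5 of the 6 libraries. All 97 genes summed to 13515 and 12981 CPM of total counts in EGFR-DN replicates 1 and 2. The EGFR-WT replicates had 13163, 13812 and 13132 CPM, and EGFR-DN replicate 3 had 5780 CPM. EGFR-DN replicates 1 and 2 lay within the range of the EGFR-WT group or just outside it, and their mean was 99.1% of the EGFR-WT mean. EGFR-DN replicate 3 held 43.4% of the mean of the other 5 libraries, or 55.1% with TMM-scaled CPM, in which rRNA-like counts weigh less. In bulk RNA, fewer cells that express a gene and less of its RNA per cell cannot be told apart.

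Each complex repeated that arrangement. Complex I genes summed to 4542, 4498 and 1988 CPM in EGFR-DN replicates 1, 2 and 3 and to 4453, 4706 and 4520 CPM in the EGFR-WT replicates. Complex III genes summed to 1370, 1325 and 772 CPM against 1324, 1409 and 1333 CPM. Complex IV genes summed to 3165, 2958 and 1208 CPM against 3064, 3159 and 3015 CPM. In each of these complexes EGFR-DN replicates 1 and 2 lay within or just outside the EGFR-WT range and replicate 3 lay far below it. Complex V genes summed to 4438, 4200 and 1813 CPM against 4322, 4538 and 4265 CPM. Without EGFR-DN replicate 3, the EGFR-DN mean of a complex was 98.7% to 99.4% of the EGFR-WT mean. Among the 5 libraries without it the highest was 5.69% (complex I) to 8.04% (complex V) above the lowest, so that these differences were smaller than the spread between libraries. No p-value is given for sums over chosen genes.

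**Figure D1:**
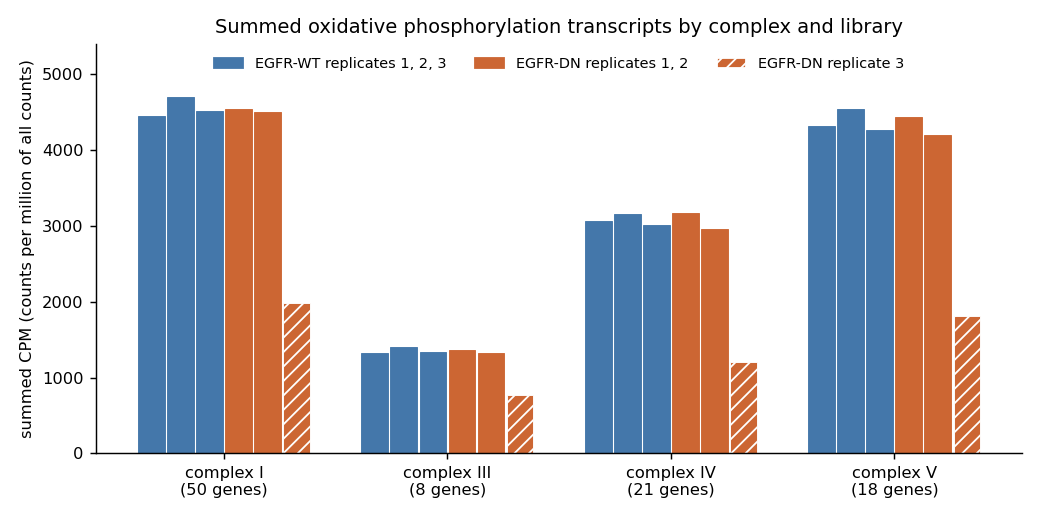
Summed CPM of total counts (vertical axis) of the 50, 8, 21 and 18 genes of complexes I, III, IV and V, 1 bar for each library, with EGFR-WT in blue, EGFR-DN in orange and EGFR-DN replicate 3 hatched. The hatched bars are the lowest in each complex, at 1988, 772, 1208 and 1813 CPM, and the other 5 bars of a complex are close in height.

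The balance between complexes was also steady in those 5 libraries. The log2 ratio of complex III to complex I sums lay between -1.76 and -1.73 in them and was -1.37 in EGFR-DN replicate 3, so complex III sums were the least low there. Uqcrc2 of complex III weighs in that sum, at 260 CPM there against a mean of 169 CPM in the other 5 libraries (TMM-scaled). Gene by gene complex III was not less low: the median log2 difference of that library from the mean of the other 5 was -0.82, and -0.80 in complex I. The ratio of complex IV to complex I lay between -0.60 and -0.52 in the 5 libraries and was -0.72 in EGFR-DN replicate 3. In complex IV 1 gene weighs heavily in this: Cox6b1 was at 106 CPM there against a mean of 474 CPM in the other 5 libraries (TMM-scaled). For complex V over complex I the 5 libraries ranged from -0.10 to -0.03, and EGFR-DN replicate 3 was at -0.13.

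By level, the set ran from some of the most abundant transcripts of these cells down to genes without a single count. In the EGFR-WT mean, 51 genes were at or above 100 CPM. Levels of different genes were compared per kilobase of the gene's median transcript length. In complex I the highest subunit genes were Ndufa3 (528 CPM per kb), Ndufa1 (377) and Ndufa7 (291), all small accessory subunits, against a median of 144 over 37 subunit genes. Complex III was led by Uqcrh, the hinge protein, at 523 CPM per kb, Uqcrc1, a core protein of the matrix side, at 476, and the small subunit Uqcr10 at 458. Complex IV was led by Cox6b1, which faces the intermembrane space, at 994 CPM per kb, followed by Ndufa4 at 937 and Cox4i1, an early assembling subunit, at 466. Complex V was led by Atp5if1, the inhibitor that stops the enzyme from running backwards, at 866 CPM per kb, then the stalk subunit Atp5pf at 501 and the small membrane subunit Atp5mk at 492. Using the longest transcript of each gene, 9 of these 12 leading genes stayed in their complex's top 3. Uqcrc1 dropped to 154 CPM per kb and Atp5mk to 65.2, and Cox4i1 left the top 3 of its complex, so their places rest on which transcript is taken.

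EGFR-WT replicates agreed closely in these genes. Cox4i1 was at 352, 342 and 348 CPM in them (mean 347 ± 4.84 SD, n = 3). Atp5f1a, the alpha subunit of the catalytic head, was at 729, 739 and 707 CPM (725 ± 16.2 SD, n = 3). Ndufa4 was at 405, 451 and 437 CPM (431 ± 23.5 SD, n = 3). The spread was a small part of each mean.

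Of the 97 genes, 91 passed the filter on low counts and were tested. The 6 others were Cox7b2, Cox8b, Cox8c, Ndufa4l2, Ndufa11b and Ndufb11b, which are tissue-restricted isoforms or copies. Cox7b2, Cox8c and Ndufb11b had under 3 counts in every library, and 3 counts correspond to 0.0833 to 0.125 CPM of total counts, a limit that covers counting error only. Ndufa11b had 3, 1 and 25 counts in EGFR-DN replicates 1, 2 and 3 and 0, 3 and 2 counts in the EGFR-WT replicates, so most of its counts came from EGFR-DN replicate 3.

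In the comparison of all 6 libraries, 0 of 91 members passed an adjusted p of 0.05 by edgeR (smallest adjusted p = 0.690), where 0.00518% of all 19313 genes tested did. The log2 fold change (EGFR-DN minus EGFR-WT) was below 0 in 86 of 91 members, against 49% of all genes, and its median was -0.24 against 0.01 over all genes. At an unadjusted p under 0.05, 1 member was higher (Cox6a2), where 4.3% of all genes were, and 0 were lower, where 2.4% were. The limma-voom test with library quality weights called 1 member, Cox6a2, and the DESeq2 Wald test called 0.

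Without EGFR-DN replicate 3 the downward shift was not seen. The log2 fold change was then below 0 in 51 members and above 0 in 40, with a median of -0.01 (all genes -0.01). In 83 of 91 members it was smaller than 0.2 in size, and in 66 smaller than 0.1. The median standard error of a member was 0.07, against 0.16 over all genes tested and 0.25 for the members with all 6 libraries. By edgeR 1 member passed an adjusted p of 0.05 (Cox6a2, higher), where 0.286% of 19919 genes did. At an unadjusted p under 0.05, that 1 member was higher, where 6.64% of all genes were, and 4 were lower, where 6.99% were. The 4 were Atp5mk, Ndufaf4, Ndufa5 and Ndufaf5, and none passed after adjustment (smallest adjusted p = 0.170, Atp5mk). Both shares of members lie below the background.

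**Figure D2:**
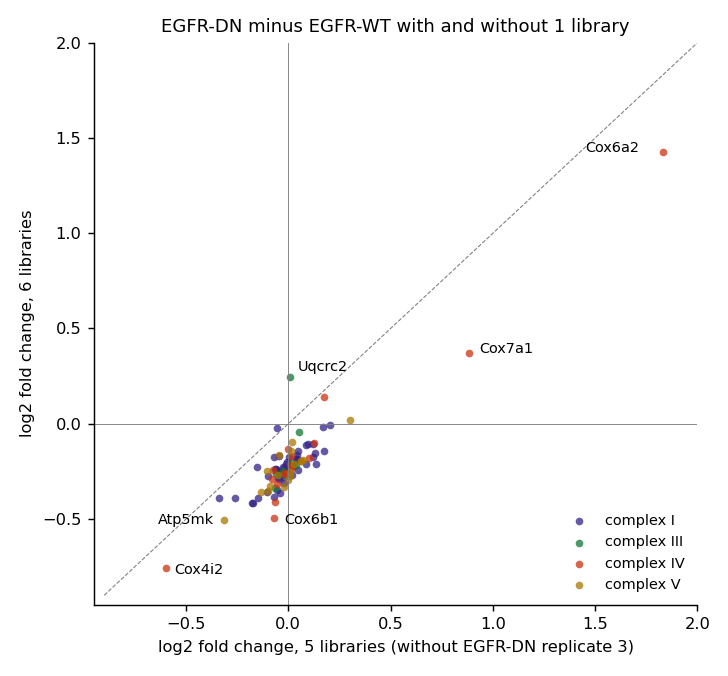
Log2 fold change (EGFR-DN minus EGFR-WT) of the 91 tested genes in the fit of 5 libraries (horizontal axis) and of 6 libraries (vertical axis), 1 point a gene, coloured by complex, with the dashed line marking equal values. Most points sit near 0 on the horizontal axis and below 0 on the vertical one (medians -0.01 and -0.24), and Cox6a2 lies far to the upper right at 1.83 and 1.43.

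Complex I shows the pattern at the level of its parts. Its core subunits, which carry flavin, iron-sulfur clusters and the quinone site, had a median log2 fold change of -0.18 over 7 genes with all 6 libraries and 0.00 without EGFR-DN replicate 3. Ndufs1, a core subunit of the electron input arm, was at 85.6, 84.0 and 54.9 CPM in EGFR-DN and at 80.9, 93.5 and 90.2 CPM in EGFR-WT. The first 2 EGFR-DN values fall inside the EGFR-WT range and the third far below it. The 30 accessory subunits had medians of -0.25 and -0.02. Ndufs5, an accessory subunit of the intermembrane side, had the highest value of complex I without EGFR-DN replicate 3, at 0.20 (SE 0.09, adjusted p = 0.389), and -0.01 (SE 0.23, adjusted p = 0.992) with it.

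The 8 assembly factors of complex I, which help build the enzyme and do not stay in it, had a median of -0.31 with all 6 libraries and -0.12 without EGFR-DN replicate 3. Ndufaf4 was at 46.2, 44.4 and 33.3 CPM in EGFR-DN and 52.1, 51.4 and 59.1 CPM in EGFR-WT (54.2 ± 4.25 SD, n = 3). Its groups did not overlap, yet the log2 fold change of -0.26 (SE 0.08) without EGFR-DN replicate 3 did not pass (adjusted p = 0.248), nor did the -0.39 (SE 0.17) with it (adjusted p = 0.690). Ndufaf5, a modifying enzyme of a core subunit, was at 8.05, 8.68 and 7.35 CPM against 10.2, 11.1 and 10.3 CPM, with a log2 fold change of -0.34 (SE 0.14, adjusted p = 0.348) without that library and -0.39 (SE 0.17, adjusted p = 0.690) with it. Ndufaf3, which works beside Ndufaf4 in assembly, was at 20.0, 26.9 and 9.13 CPM against 18.4, 23.1 and 20.7 CPM, with overlapping groups. Of the assembly factors, 0 of 8 passed by edgeR in either fit, and at an unadjusted p under 0.05 there were 0 with all 6 libraries and 2 without EGFR-DN replicate 3, both lower (6.99% of all genes were).

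Among all members, groups did not overlap in 1 gene that was higher in EGFR-DN (Cox6b2), where 9.21% of all genes were, and in 10 that were lower, where 8.72% were. The 10 were Atp5mf, Atp5mj, Atp5mk, Cox4i2, Ndufa5, Ndufaf2, Ndufaf4, Ndufaf5, Ndufaf8 and Ndufs4. The lower set thus lies near the background share, and EGFR-DN replicate 3 takes part in each of these counts. For Cox6b2 the groups were barely apart, with 32.2 CPM the lowest in EGFR-DN and 31.7 CPM the highest in EGFR-WT. Its log2 fold change was 0.18 (SE 0.09, edgeR adjusted p = 0.449) without EGFR-DN replicate 3 and 0.14 (SE 0.14, adjusted p = 0.728) with it.

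In complex V the lowest value without EGFR-DN replicate 3 was that of Atp5mk, a small membrane subunit known to support pairing of the enzyme. It was at 135, 152 and 89.7 CPM in EGFR-DN and at 189, 170 and 176 CPM in EGFR-WT (178 ± 9.60 SD, n = 3). All EGFR-DN libraries lay below all EGFR-WT libraries. The log2 fold change was -0.32 (SE 0.08) without EGFR-DN replicate 3 and -0.50 (SE 0.22) with it, and neither passed by edgeR (adjusted p = 0.170 and 0.690), whereas the DESeq2 Wald test without that library did call it (adjusted p = 0.0114). Atp5mj, a neighbouring small membrane subunit, was at 196, 189 and 107 CPM against 199, 221 and 210 CPM, a log2 fold change of -0.13 (SE 0.07, adjusted p = 0.467) without EGFR-DN replicate 3 and -0.36 (SE 0.25, adjusted p = 0.690) with it. The 5 subunits of the catalytic head had values between 0.00 and 0.02 without that library.

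The rotating c ring of complex V is encoded by 3 genes whose mature proteins are the same. Atp5mc3 was at 171 to 184 CPM in the 5 libraries other than EGFR-DN replicate 3, Atp5mc1 at 63.6 to 72.7 CPM and Atp5mc2 at 0.477 to 0.788 CPM. Atp5mc2 had 27, 23 and 6 counts in EGFR-DN and 15, 20 and 19 counts in EGFR-WT. Near-identical copies can split reads between symbols, so the low level of Atp5mc2 is uncertain. Atp5if1 was at 479, 436 and 225 CPM in EGFR-DN and 408, 463 and 430 CPM in EGFR-WT, with overlapping groups (log2 fold change 0.07, SE 0.08, without EGFR-DN replicate 3 and -0.19, SE 0.30, with it).

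The 1 member called was Cox6a2, the complex IV subunit isoform known from heart and skeletal muscle and also from plasmacytoid dendritic cells. It had 375, 264 and 45 counts in EGFR-DN replicates 1, 2 and 3 and at least 64 in each EGFR-WT replicate. In TMM-scaled CPM these were 10.9, 7.49 and 2.28 against 2.13, 3.06 and 2.52 (EGFR-WT 2.57 ± 0.470 SD, n = 3). EGFR-DN replicates 1 and 2 lay above all EGFR-WT libraries and EGFR-DN replicate 3 lay among them. The log2 fold change was 1.83 (SE 0.25, adjusted p = 0.0455) without EGFR-DN replicate 3 and 1.43 (SE 0.53, adjusted p = 0.690) with it. The call in 5 libraries stood close to the threshold: leaving out a further library raised the adjusted p to 0.319 (EGFR-DN replicate 1), 0.0644 (EGFR-DN replicate 2), 0.106 (EGFR-WT replicate 2) or 0.104 (EGFR-WT replicate 3), and it stayed at 0.0476 without EGFR-WT replicate 1.

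Cox6a1, the common isoform of the same subunit, was at 153, 139 and 80.7 CPM in EGFR-DN and 136, 155 and 143 CPM in EGFR-WT. Without EGFR-DN replicate 3 its log2 fold change was 0.01 (SE 0.08, adjusted p = 0.978), and with it -0.22 (SE 0.25, adjusted p = 0.748). Per length, Cox6a2 made 5.67%, 4.32% and 2.32% of the pair in EGFR-DN and 1.30% to 1.63% in EGFR-WT, so the muscle isoform remained the minor one in every library.

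In RefSeq annotation of GRCm38, Cox6a2 overlaps the end of the integrin gene Itgad, and without strand their reads cannot be told apart there. Itgad had too few counts to pass the filter. Integrin genes farther along that stretch, Itgam and Itgax, are named here after their values were seen. Itgam, a myeloid integrin, was at 66.5, 61.7 and 47.3 CPM against 20.2, 29.4 and 23.6 CPM, with no overlap and passed without EGFR-DN replicate 3 (log2 fold change 1.39, SE 0.15, edgeR adjusted p = 0.0388) but not with it (1.26, SE 0.21, adjusted p = 0.590). Itgax, an integrin of dendritic cells, had a log2 fold change of 1.09 (SE 0.44, adjusted p = 0.338) without that library and 1.47 (SE 0.48, adjusted p = 0.690) with it, and passed in neither fit.

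Markers of other cells were examined beside Cox6a2. Of 12 plasmacytoid dendritic cell genes, chosen after values were seen, 11 were tested. With all 6 libraries 0 passed by edgeR, and 4 were higher at an unadjusted p under 0.05 (4.3% of all genes were). Without EGFR-DN replicate 3, 1 passed (Irf8), and 6 were higher at an unadjusted p under 0.05 (6.64% of all genes were), but a list chosen on these values gives no support. Irf8, a transcription factor of dendritic and monocytic cells, was at 64.7, 50.7 and 35.2 CPM against 15.9, 23.0 and 25.8 CPM, with a log2 fold change of 1.42 (adjusted p = 0.0488) without EGFR-DN replicate 3 and 1.22 (adjusted p = 0.690) with it. Over the 11 genes tested the median log2 fold change without that library was 0.98, with 2 below 0, of which Bst2 was at -0.07. Siglech, which defines plasmacytoid dendritic cells, was at 1.43, 0.709 and 0.0507 CPM against 0.0953, 0.560 and 0.197 CPM. Its log2 fold change was 1.85 (edgeR adjusted p = 0.315) without EGFR-DN replicate 3 and 1.36 (adjusted p = 0.697) with it. The summed list was at 400, 384 and 287 CPM of total counts in EGFR-DN replicates 1, 2 and 3 and at 317 to 332 CPM in EGFR-WT. Most of that sum came from Tcf4, Bst2, Runx2 and Irf8 in every library, and little of it from Siglech. In the sum the groups overlapped through EGFR-DN replicate 3 alone, and EGFR-DN replicates 1 and 2 lay above all EGFR-WT libraries. No member of the list was at 0 in all libraries. The 9 neutrophil granule genes summed to 928 to 1175 CPM in EGFR-DN and 423 to 608 CPM in EGFR-WT. Most of that sum was Mpo, at 653, 648 and 1261 CPM in EGFR-DN and 262, 429 and 328 CPM in EGFR-WT (TMM-scaled). In EGFR-DN replicate 3, 5 of the 8 tested genes were below the mean log2 level of the other 5 libraries. Ctsg was at 15.6 CPM there against 34.7, 52.5 and 40.3 CPM in EGFR-WT, and Prtn3 at 59.8 against 90.9, 78.3 and 68.4 CPM. Of the 8 tested in both fits, 5 were higher and 0 lower at an unadjusted p under 0.05 with all 6 libraries (4.3% of all genes were higher). Without EGFR-DN replicate 3, 6 were higher (6.64% of all genes were) and 0 lower. By edgeR Ctsg then passed (adjusted p = 0.0388), but not with all 6 libraries (0.690). Camp, tested without that library only, passed too (adjusted p = 0.0455) at 1 to 44 counts a library. In each fit 3 of 5 B lineage genes and 2 of 3 T and NK genes tested were higher at an unadjusted p under 0.05, with 0 lower. The erythroid, megakaryocyte and stromal lists had at most 1 higher and 1 lower in a fit. The 1 lower was Col1a2, which passed by edgeR without EGFR-DN replicate 3 (adjusted p = 0.0455). Muscle genes were near 0, with 4 genes summing to at most 1.73 CPM. The lineage-negative sort is meant to remove mature cells of these kinds, and their part in the Cox6a2 value was not tested.

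The other isoform pairs of complex IV each had a dominant common form. Cox4i2, known from lung and oxygen sensing cells, was at 0.875, 0.964 and 0.609 CPM in EGFR-DN and 1.33, 1.12 and 1.74 CPM in EGFR-WT. Its groups did not overlap, but at 12 to 44 counts a library the log2 fold change of -0.60 (SE 0.34) without EGFR-DN replicate 3 did not pass (adjusted p = 0.499), nor did the -0.76 (SE 0.36) with it (adjusted p = 0.690). Cox7a1, the muscle isoform of Cox7a2, had 24, 16 and 0 counts in EGFR-DN and 8, 7 and 13 in EGFR-WT. Cox8a was at 246 to 266 CPM outside EGFR-DN replicate 3, while its partners Cox8b and Cox8c had at most 4 counts in any library. Ndufa4 was at 488, 440 and 213 CPM in EGFR-DN and 405, 451 and 437 CPM in EGFR-WT, whereas Ndufa4l2, a hypoxia-linked partner, had at most 5 counts. Cox7b was at 169 to 179 CPM in those 5 libraries and Cox7b2 had at most 2 counts.

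**Figure D3:**
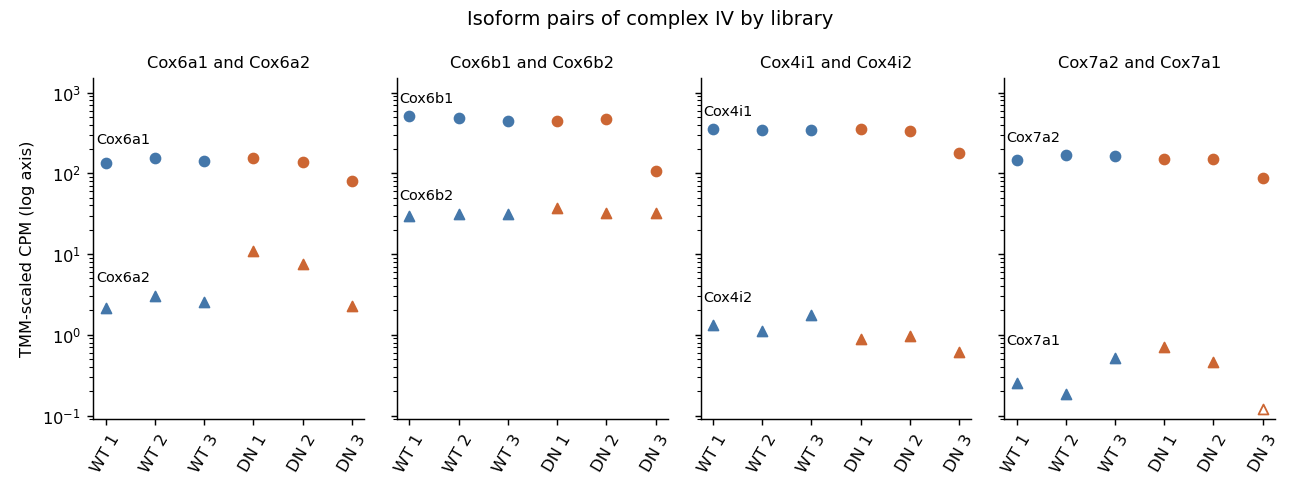
TMM-scaled CPM on a log axis of 4 isoform pairs of complex IV in the 6 libraries, with circles for the common form, triangles for the tissue form, blue for EGFR-WT (WT) and orange for EGFR-DN (DN). Cox6a2 lies higher in DN 1 and DN 2 than in WT, Cox6b1 is at 106 CPM in DN 3 beside an even Cox6b2, and the open triangle stands for Cox7a1 at 0 counts, drawn at the lower edge.

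The size of the departure of EGFR-DN replicate 3 differed between members. It was taken as log2 TMM-scaled CPM in that library minus the mean of the other 5, and as 1 library it has no test. The median over the 91 members was -0.88, against 0.01 over all genes, and it was below 0 in 89 members, at -0.5 or lower in 80 and at -1 or lower in 27. EGFR-DN replicate 3 was below all 5 other libraries in 87 of 91 members, where 38.3% of all genes were, and above all 5 in 1 member, where 38.1% were. Medians were -0.80 in complex I, -0.82 in complex III, -0.90 in complex IV and -0.95 in complex V. Within complex I the core subunits had -0.66, the accessory subunits -0.92 and the assembly factors -0.72.

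Cox6b1 departed most among genes with counts in every library. It was at 106 CPM in EGFR-DN replicate 3 against 447 and 476 CPM in the other EGFR-DN libraries and 448 to 511 CPM in EGFR-WT, a mean 4.48-fold higher in the other 5. Cox6b2, its testis-enriched partner, was at 32.2 CPM there against 30.0 to 37.7 CPM elsewhere. Cox6b2 thereby made 25.3% of the pair per length in that library and 6.16% to 8.62% in the others. Cox6c2, a copy of the subunit gene Cox6c, was 2.93-fold higher in the other 5 libraries and Cox6c itself 1.93-fold higher, although reads of these copies may be mixed. In complex I, Ndufb11 was at 52.7 CPM against a mean of 140.2 CPM in the other 5 libraries, and Ndufa1, an early membrane arm subunit, at 60.7 against 156 CPM. In complex V, Atp5pf was at 145 against 354 CPM.

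The 4 members that were not below all other libraries were Cox6a2, Cox6b2, Ndufs7 and Uqcrc2. Ndufs7, the core subunit with the last iron-sulfur cluster of complex I, was at 84.1 CPM in EGFR-DN replicate 3 against 77.7 to 87.1 CPM elsewhere. Uqcrc2, a core protein of complex III, was at 260 CPM there, above the 157 to 176 CPM of the other 5 libraries. Uqcrc1, its partner in the same part of the enzyme, was at 210 CPM against 240 to 277 CPM. Uqcrfs1, the Rieske iron-sulfur protein of complex III, was at 43.3 CPM against 88.5 to 100 CPM. Subunits of 1 enzyme thus parted widely in that library.

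**Figure D4:**
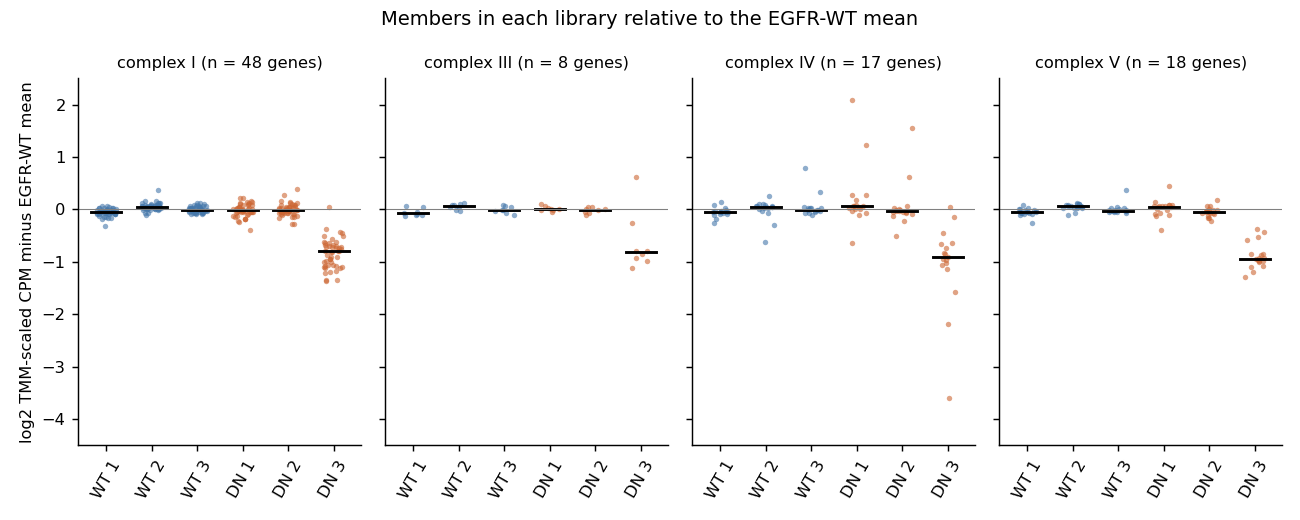
Log2 TMM-scaled CPM minus the EGFR-WT mean (vertical axis) of each tested gene in each library, 1 panel a complex (48, 8, 17 and 18 genes), with black bars for the median. Medians lie near 0 in 5 libraries and between -0.80 and -0.94 in EGFR-DN replicate 3 (DN 3), where Uqcrc2 is the point above 0 in complex III and the lowest point of complex IV is Cox7a1, which had 0 counts there.

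Members share short transcripts. Their median transcript length was 645 bases, against 1763 bases for other genes tested, and their median level was 110.5 CPM against 18.4 CPM. In EGFR-DN replicate 3 the departure of other genes moved with length: its median was -0.54 up to 500 bases, -0.37 from 500 to 750 bases and 0.82 above 5000 bases. Among other genes with a mean of at least 64 CPM it was -0.97 up to 500 bases (178 genes), beside -0.98 for the 13 members of that length and level. From 500 to 750 bases these values were -0.65 (337 genes) and -0.83 (30 members), and from 1000 to 1500 bases -0.59 (420 genes) and -0.93 (10 members). Members thus lay at the value of other short, abundant genes in the shortest class and below it in longer ones. Across the 90 members with a length, the departure and the length gave Spearman's rho of 0.19, and across 16642 other genes 0.30, as descriptions over genes of the same libraries. The part of transcript length, of rRNA-like counts and of the low ribosomal protein counts in these departures was not tested.

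**Figure D5:**
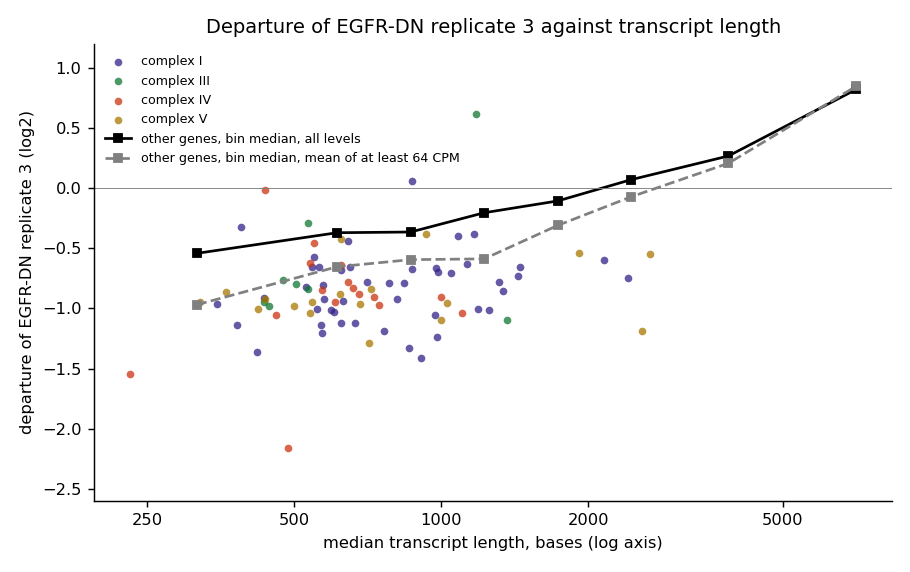
Departure of EGFR-DN replicate 3 (log2, vertical axis) against the median transcript length of each gene (log axis) for members, coloured by complex, with squares for the median of other genes by length class, at all levels (solid) or with a mean of at least 64 CPM (dashed). Other genes run from -0.54 in the shortest class to 0.82 in the longest, and most members lie near -0.88, while Cox7a1, with 0 counts in that library, is not drawn.

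Promoters of the members were examined because respiratory genes that rise or fall together are known to share binding sites for NRF1, for ETS factors such as GABP, and for YY1. RefSeq windows of GRCm38.p6, from 250 bases before to 50 after the start, were used for 76 members and for 27025 genes in all. Exact matches were sought on both strands. The NRF1 core GCGCATGCG was in 13.2% of member windows and 1.81% of all windows, the ETS core CCGGAAG in 21.1% and 9.12%, and the YY1 site AAGATGGCG in 9.21% and 1.49%. At least 1 of these 3 was in 28 of the 76 member windows (36.8%), against 11.8% of all, and 48 had none. GGGCGG, the SP1 box, was in 44.7% against 35.9%, and CCAAT in 42.1% against 37.9%. These shares describe letters in windows and not bound sites.

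One window is shown for each complex, to let the motifs be seen in place: for complexes I, III and V a window with matches to 2 kinds of motif, and for complex IV that of Cox6b1, the member that departed most in EGFR-DN replicate 3. Capitals mark matches to the NRF1, ETS or YY1 letters on either strand. Ndufaf8 (an assembly factor) is chr11:120098684-120098983 on the plus strand, Uqcr11 (a small complex III subunit) chr10:80406772-80407071 on the minus strand, Cox6b1 chr7:30626065-30626364 on the minus strand, and Atp5me (a membrane subunit) chr5:108434350-108434649 on the minus strand.
Ndufaf8: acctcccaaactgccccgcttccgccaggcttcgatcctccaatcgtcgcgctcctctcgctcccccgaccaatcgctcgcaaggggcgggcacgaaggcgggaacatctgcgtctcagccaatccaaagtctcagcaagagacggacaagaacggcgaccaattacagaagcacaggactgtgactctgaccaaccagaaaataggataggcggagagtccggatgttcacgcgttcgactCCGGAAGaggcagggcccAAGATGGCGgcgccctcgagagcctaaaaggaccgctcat
Uqcr11: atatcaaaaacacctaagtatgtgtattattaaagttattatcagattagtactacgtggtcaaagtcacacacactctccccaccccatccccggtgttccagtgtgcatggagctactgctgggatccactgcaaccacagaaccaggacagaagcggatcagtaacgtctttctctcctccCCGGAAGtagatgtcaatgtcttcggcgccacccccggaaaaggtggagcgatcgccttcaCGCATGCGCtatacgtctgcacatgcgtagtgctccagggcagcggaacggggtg
Cox6b1: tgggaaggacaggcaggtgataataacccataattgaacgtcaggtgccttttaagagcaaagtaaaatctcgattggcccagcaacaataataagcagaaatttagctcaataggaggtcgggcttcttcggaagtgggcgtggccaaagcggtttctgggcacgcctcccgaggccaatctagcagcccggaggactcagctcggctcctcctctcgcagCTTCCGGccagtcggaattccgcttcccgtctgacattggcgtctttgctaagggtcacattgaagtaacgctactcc
Atp5me: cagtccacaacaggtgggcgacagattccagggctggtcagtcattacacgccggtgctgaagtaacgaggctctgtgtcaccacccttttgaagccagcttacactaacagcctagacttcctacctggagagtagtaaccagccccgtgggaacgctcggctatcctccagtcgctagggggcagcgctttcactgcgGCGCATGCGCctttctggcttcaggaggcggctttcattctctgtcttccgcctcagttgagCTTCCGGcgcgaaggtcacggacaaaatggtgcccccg
The departures of these genes in EGFR-DN replicate 3 were -1.03 for Ndufaf8, -0.98 for Uqcr11, -2.16 for Cox6b1 and -0.95 for Atp5me. Without that library their log2 fold changes were -0.17, -0.01, -0.07 and -0.09, and with it -0.42, -0.27, -0.49 and -0.33. By edgeR 0 of the 4 passed in either fit. Ndufaf8 has an ETS and a YY1 match, Uqcr11 and Atp5me an NRF1 and an ETS match each, and Cox6b1 an ETS match alone.

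Genes of the same pathway outside the naming rule were taken from a fixed list of 62 genes, of which 61 were tested. None passed an adjusted p of 0.05 by edgeR in either fit. At an unadjusted p under 0.05 with all 6 libraries there were 0, and without EGFR-DN replicate 3 there were 1 higher (Gabpb1) and 2 lower (Coa7 and Tmem70), shares below those of all genes (6.64% and 6.99%). Their median log2 fold change was -0.15 with all 6 libraries and -0.05 without EGFR-DN replicate 3. Complex II, which feeds electrons from succinate, had a median departure of -0.87 in EGFR-DN replicate 3 over its 4 subunits. Sdha, its flavoprotein, was at 354, 337 and 173 CPM in EGFR-DN and 352, 370 and 351 CPM in EGFR-WT. Cycs, cytochrome c, was at 15.4, 15.0 and 7.81 CPM against 14.7, 17.7 and 16.2 CPM. Tmem70, an assembly factor of complex V, was at 68.6, 61.9 and 42.8 CPM against 74.5, 72.2 and 75.1 CPM, with groups apart but without a call (adjusted p = 0.309 without EGFR-DN replicate 3 and 0.690 with it).

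The 12 regulators of respiratory gene transcription had a median departure of -0.03 in EGFR-DN replicate 3. Nrf1 was at 61.2, 58.7 and 54.1 CPM in EGFR-DN and 60.7, 64.5 and 59.2 CPM in EGFR-WT. Pprc1, a PGC-1 related coactivator, was at 305 CPM in EGFR-DN replicate 3 against 85.3 to 107 CPM in the other 5 libraries. Tfam, which packages and transcribes mitochondrial DNA, was at 51.2, 50.3 and 32.1 CPM against 52.9, 52.2 and 59.7 CPM. Ppargc1a, the PGC-1 alpha coactivator, was at 1.31, 1.47 and 1.57 CPM against 2.54, 1.73 and 2.44 CPM, without a call (log2 fold change -0.68, SE 0.30, edgeR adjusted p = 0.374, without EGFR-DN replicate 3 and -0.62, SE 0.30, adjusted p = 0.690, with it).

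The 13 mRNAs of the mitochondrial genome, which encode the other subunits of these complexes, summed to 39663, 38578 and 30980 CPM of total counts in EGFR-DN and to 44230, 39425 and 42767 CPM in EGFR-WT. On that scale the sum was lowest in EGFR-DN replicate 3. In TMM-scaled CPM the median departure of the 13 there was 0.49, against -0.88 for the nuclear members. It was below 0 in 4 of the 13 (COX3, ND3, ATP8 and COX2), so most of them did not share the shift of the nuclear genes. ND5, a proton pumping subunit of complex I, was at 3773 CPM in that library against 1246 to 1508 CPM elsewhere. COX3, a core subunit of complex IV, was at 3054 CPM against 9296 to 12140 CPM, and ND3 at 153 CPM against 423 to 664 CPM. Transcripts of that genome therefore went in both directions in 1 library. By edgeR 0 of 13 passed in either fit. At an unadjusted p under 0.05 there were 0 with all 6 libraries and 4 lower without EGFR-DN replicate 3, where 6.99% of all genes were lower. Without that library CYTB, the cytochrome b of complex III, had the smallest p (log2 fold change -0.30, SE 0.08, edgeR adjusted p = 0.191), and with it the value was -0.03 (SE 0.32, adjusted p = 0.973).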

How the data were processed

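RNA was measured by bulk sequencing in 3 EGFR-DN and 3 EGFR-WT libraries of sorted mouse CD34- KSL cells. Per the labels' protocols, the SMART-Seq v4 kit made oligo(dT)-primed cDNA out of 10 ng RNA, and Nextera XT libraries were sequenced from a single end for 75 bases. Strand is not kept by Nextera XT, so overlapping genes can share reads. For 50763 gene symbols the authors deposited unscaled estimated counts, 79.4% of them whole. DRAGEN, DESeq2 1.40.2, R 4.3.1 and the build mm39 appear in the submitters' processing notes, with annotation and settings not given in the sources used here. Since tests for whole counts had been planned, estimated counts were rounded first. The table has 0 rows without a name and 0 columns from other samples.

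Genes were filtered with filterByExpr, scaled by TMM and tested two-sided by edgeR 4.0.16 (quasi-likelihood; R 4.3.3). P-values were adjusted by Benjamini-Hochberg over all genes, with a threshold of 0.05, on all 6 libraries and on 5 without EGFR-DN replicate 3. SE is the size of the log2 fold change over the square root of F. CPM of total counts are used for sums only, and the log scale adds a prior count of 0.5. No 2 libraries were duplicates (smallest chi-square per degree of freedom 14.9). Alternatives were DESeq2 1.42.0 size factors and Wald test, upper-quartile scaling, library size alone, limma 3.58.1 voom with and without quality weights, no filter, a filter of 50 counts in 3 or more libraries, a block on the replicate number, a table without 8 rRNA-like genes, and fits that each left out 1 library. The same choices were repeated on the 5 libraries after the data were seen. The scripts were tested on simulated data.

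Members, gene lists and motifs were chosen with earlier results of these data known. Members were named if called in either fit, among the 3 highest per kb or the 2 highest or lowest in log2 fold change (5 libraries) or departure in their complex (mean of at least 4 CPM), or if they form a tissue-isoform pair, the c ring or Atp5if1. Those under 3 counts in every library were named only. Other members are named for their role and were chosen after their values were seen. Transcript lengths are from GENCODE of GRCm38, matched by symbol for 95 members.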

Additional observations from a re-analysis of the deposited data

How the results depend on the processing

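With all 6 libraries, 0 members passed under 9 of the 10 alternatives other than leaving out a library, and 1 passed with library quality weights (Cox6a2, adjusted p = 0.0306). Leaving out a library gave 0 to 1, the 1 being Cox6a2 without EGFR-DN replicate 3. The median log2 fold change of members ranged from -0.32 to -0.03 over those 10 alternatives, and from -0.39 to -0.01 with a library left out, the last without EGFR-DN replicate 3. Library size alone moved the median of all genes to -0.10, and the difference of members from it was -0.22. In the 5 libraries, 1 member passed, 2 passed with the DESeq2 Wald test (Cox6a2 and Atp5mk), 0 passed with the replicate block (Cox6a2 adjusted p = 0.170), and 0 to 1 with a further library left out, where a group of 2 may be left with 1 library that is assumed to vary like the rest. The cause was not tested. Same-numbered libraries of the groups did not deviate together from their group means (r = -0.01, 0.05 and 0.07 across genes). This gives no sign that the numbers pair them. It cannot exclude pairing, because EGFR-DN replicate 3 weighs heavily in the deviations of its group. With all 6 libraries the replicate block changed no call. Over the 5-library alternatives the adjusted p of Cox6a2 ranged from 3.96e-08 to 0.319 and that of Atp5mk from 0.0114 to 0.723. The median over members stayed between -0.03 and 0.02. The summed CPM, as a log2 ratio of EGFR-DN to EGFR-WT, was -0.31 and, without EGFR-DN replicate 3, -0.01. With all 6 libraries it was -0.23 in TMM-scaled CPM, -0.25 without rRNA-like genes and -0.32 with pseudogene symbols kept. The median departure was -0.88, -1.22 by library size alone and -0.90 without rRNA-like genes. Depth limits genes such as Cox7a1, Cox8b and Atp5mc2, which had under 30 counts in every library.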
